A study of Danio rerio with 2 samples.

Results

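miR-218a, miR-218b and miR-138 were examined in small RNA sequencing data of whole zebrafish embryos, collected 48 hours post fertilisation (hpf). They were chosen by name, as the entries for mir-218 with any letter or for mir-138 once the locus numbers were dropped. This gave mir-218a, mir-218b and mir-138, 3 of the 173 miRNAs listed. Other names that begin with the same digits, such as mir-2188, are unrelated miRNAs and were left out.

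The Tbx5 morphant library came from wild-type AB embryos injected at the 1-cell stage with morpholinos against Tbx5, a T-box transcription factor of the heart and the pectoral fins. The MO-Ct library came from AB embryos injected in the same way with a control morpholino. Morpholinos are antisense oligomers that block the translation or splicing of a transcript. The labels give 1.5 ng of MO-Tbx5a or of control morpholino and 50 embryos per RNA extraction. The results of the study instead describe MO-Tbx5a and MO-Tbx5b together, and control morpholino in an amount equal to theirs. They also describe a selection of embryos with the heartstring phenotype, a thin unlooped heart. Which description holds for the deposited libraries is not known. RNA was taken from whole embryos and the heart was not dissected, so for each miRNA fewer cells that make it and less of it per cell cannot be told apart. Each condition was 1 library of pooled embryos, so no difference given here could be checked against replicates, and the conditions were not tested against each other.

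The level of a miRNA is given in rpm, its reads scaled to a total of 1000000 reads over the miRNAs listed for that library. All 173 values of each library corresponded to whole numbers of reads, within the rounding of the deposited decimals, which put the depth at 1150157 reads for MO-Ct and at 580312 reads for the Tbx5 morphants. The fold change (FC) is the level in the Tbx5 morphants over the level in the MO-Ct injected controls. Its 95% interval is an exact Clopper-Pearson interval from the reads of both libraries. It covers the counting error of reads only, and it compares these 2 libraries and not the conditions. PCR copies are not independent molecules, so the interval may be too narrow even for the counting error of molecules.

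miRNAs are short RNAs that guide Argonaute proteins to partly complementary sites, mostly in the 3′ part of messenger RNAs, and lower the output of those transcripts. In vertebrates forms of miR-218 are made from introns of Slit genes, whose secreted proteins signal through Robo receptors. In zebrafish it acts in a feedback loop on Robo1 while the heart field migrates to the midline, and excess miR-218 has been linked to the effects of raised Tbx5a on the heart. miR-218 is also known as a miRNA of motor neurons. miR-138 is required in the zebrafish embryonic heart to keep ventricular and atrioventricular canal gene programmes apart, with versican and the retinoic acid enzyme Aldh1a2 among its targets, and it is known from the mammalian brain as well.

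The annotation of the GRCz12tu assembly placed the members in different surroundings, and it was used for names and neighbours only. miR-218a has 2 loci, and the deposited values join them in 1 entry. mir218a-1 lay within slit3 and mir218a-2 lay within slit2, both of which encode Slit ligands. mir218b was in no protein-coding gene and had drg1 and stard7 as its nearest protein-coding neighbours. The miR-138 locus named in the values, dre-mir-138, lay between nup93 and slc12a3. The annotation names a further locus, mir138-2, within tcaim, which has no entry of its own in the deposited values. The rpm of miR-218a therefore could not be divided between the slit2 and the slit3 locus. How far mir138-2 contributed to the rpm of miR-138 was not tested.

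miR-218a was the most abundant of the members and was lower in the Tbx5 morphant library. It had 1146 rpm (95% interval 1061 to 1236) in the Tbx5 morphant library, from 665 reads. The controls had 1469 rpm (1400 to 1541), from 1690 reads. The intervals of both levels were apart from each other. At the depth of the Tbx5 morphant library, the MO-Ct level would have corresponded to 853 reads. The FC was 0.780 (0.712 to 0.854), or -0.36 on the log2 scale. miR-218a thus had a level 22.0% below that of the controls, with an interval that excluded 1 and did not reach the 1.8-fold threshold by which the study selected miRNAs. This is a difference in the share of all listed reads. With the 3 most abundant miRNAs left out of the total, the FC was 0.860.

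miR-218b, the form encoded outside the slit genes, lay in the same direction but was not separable from an equal level at this depth. The Tbx5 morphants had 219 rpm (182 to 260), from 127 reads. The controls had 256 rpm (228 to 287), from 295 reads. The FC was 0.853 (0.687 to 1.05). The interval of the FC reached from a level 31.3% lower to one 5.40% higher, so a decrease as large as that of miR-218a lay within it.

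miR-138 was the least abundant of the members and had the higher value in the Tbx5 morphant library. It had 152 rpm (122 to 187) there, from 88 reads. The controls had 136 rpm (115 to 159), from 156 reads. Neither value reached the minimum of 200 rpm that the study stated. Nor did those of miR-190b (27.6 rpm in the morphants, 104 in the controls) and miR-130a (65.5 and 141), which the study followed as lower. The FC of miR-138 was 1.12 (0.851 to 1.46), so no difference between the libraries was detectable at this depth. The interval reached from a level 14.9% lower to one 46.1% higher.

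**Figure D1:**
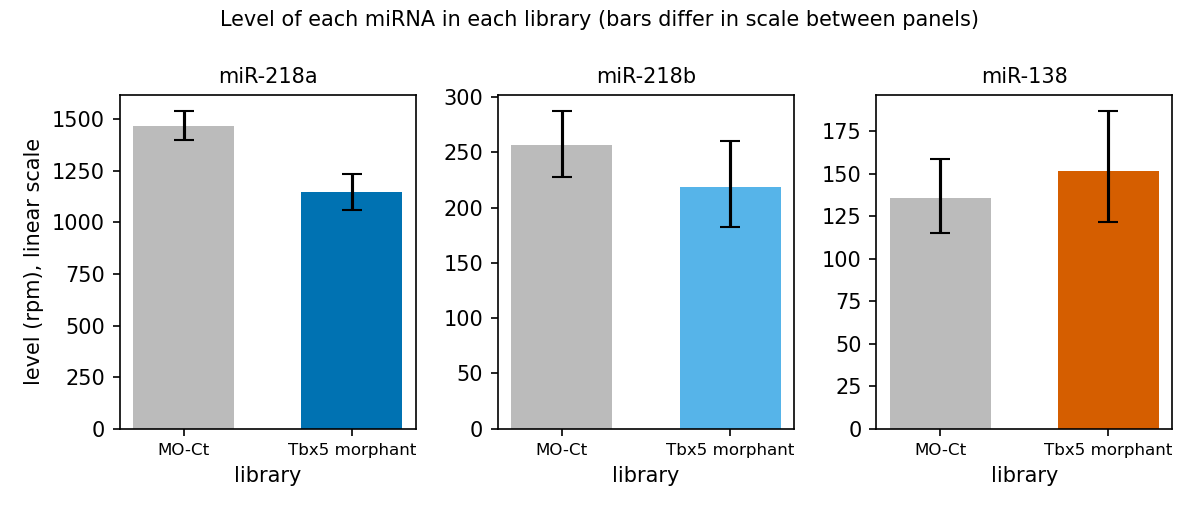
Level of miR-218a, miR-218b and miR-138 in rpm (vertical axis, linear from 0, with its own scale in each panel) for the MO-Ct and the Tbx5 morphant library; bars are the single value of each library and error bars the 95% counting interval. The intervals are apart for miR-218a, at 1146 against 1469 rpm, and overlap for miR-218b and miR-138.

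The order of the members was the same in both libraries, miR-218a above miR-218b above miR-138. miR-218a ranked 58 of 173 in the controls and 62 in the morphants. miR-218b ranked 108 and 104, and miR-138 ranked 129 and 119. Among the controls miR-218a had 2.88 times the level of the median miRNA, whereas miR-218b had 0.503 times and miR-138 had 0.266 times that level. The intervals of all 3 were apart from each other in the controls. In the Tbx5 morphant library those of miR-218b and miR-138 overlapped.

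The miRNAs next to the members in the order of levels are given for scale. In the Tbx5 morphant library miR-218a lay between miR-24 at 1184 rpm and miR-16b at 1096 rpm. In the controls its neighbours were miR-27b at 1517 rpm and miR-199 at 1423 rpm. miR-218b stood next to miR-133c, a miRNA of heart and skeletal muscle, at 224 rpm and miR-196c at 214 rpm in the Tbx5 morphant library. In the controls it stood between miR-455b at 259 rpm and miR-19d at 252 rpm. miR-138 had miR-19d at 153 rpm and miR-2188 at 146 rpm as neighbours in the Tbx5 morphant library. Its neighbours in the controls were miR-194a at 139 rpm and miR-301a at 131 rpm. For all of these neighbours the intervals overlapped that of the member, which follows from picking the closest levels.

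The makeup of miR-218 was close in both libraries. miR-218a took 84.0% (81.2 to 86.5) of the miR-218 reads in the Tbx5 morphant library, 665 of 792 reads. In the controls it took 85.1% (83.5 to 86.7), 1690 of 1985 reads. The level of miR-218a was 5.73 times that of miR-218b in the controls and 5.24 times in the morphants. Reads of these related miRNAs could have been divided between the names by an annotation that tolerated mismatches, so the sum of both is given as well. Both together had 1726 rpm in the controls and 1365 rpm in the morphants, and their FC was 0.791 (0.727 to 0.859). The sum was thus lower in the Tbx5 morphant library by about as much as miR-218a, which supplied most of its reads.

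The balance of miR-218 to miR-138 was lower in the Tbx5 morphant library, by a margin not far beyond counting error. There were 12.7 miR-218 reads for each miR-138 read in the MO-Ct library, with a counting interval of 10.8 to 15.1. In the Tbx5 morphant library there were 9.0, with an interval of 7.21 to 11.3. These intervals overlapped, and the comparison of the FC themselves is the direct one. The FC of the summed miR-218 was 0.707 times that of miR-138 (conditional exact 95% interval 0.534 to 0.942). This interval was not widened for the number of ratios computed. It rests on 88 and 156 miR-138 reads in the Tbx5 morphant and the MO-Ct library.

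For the 3 pairs of members the ratio of their FC was computed with the same kind of interval. A common rescaling of a library cancels in these ratios. The FC of miR-218a was 0.698 times that of miR-138 (0.525 to 0.931). With the intervals widened to 98.3% each to allow for 3 pairs, the ratio ran from 0.495 to 0.991, so it still excluded 1, by a small margin. This widening did not allow for the ratio of the summed miR-218 as well. The FC of miR-218b was 0.763 times that of miR-138 (0.539 to 1.08), and an equal FC was within the interval. The FC of miR-218a was 0.914 times that of miR-218b (0.725 to 1.16). The forms of miR-218 were thus not separable in their FC, although a difference of up to 1.16-fold one way or 0.725-fold the other was within the interval.

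The members were then set beside all miRNAs of these libraries. None of the 3 passed a FC of 1.8 in either direction. Of the 116 miRNAs above 200 rpm in the MO-Ct library, 6.03% were at least 1.8-fold lower and 0% were at least 1.8-fold higher. The study reported both lower and higher miRNAs by its stated thresholds, so this count differs from its own. With the minimum of 200 rpm set on the Tbx5 morphants instead, 3 of 108 were lower and 1 was higher, and miR-138 was under the minimum on either side. Without a minimum level, 15.6% of all 173 miRNAs were lower and 1.73% were higher by the 1.8-fold threshold. Those counted as lower include the 11 listed at 0 in the Tbx5 morphants, the library with fewer reads. With 1 of 3 members, miR-218a, the interval of the FC lay below 1, and it lay above 1 for 0 of 3. A ratio could be formed for 162 miRNAs, those above 0 on both sides, and 45.7% of them had an interval below 1 and 17.9% had one above 1. A FC interval below 1, as that of miR-218a, was therefore common among these miRNAs.

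Intervals that excluded 1 were less frequent among the miRNAs with few reads. Of the 67 with fewer than 500 reads in the MO-Ct library and above 0 on both sides, the class of miR-218b and miR-138, 30 had an interval that excluded 1, which is 44.8%. This class does not count the 11 miRNAs listed at 0 in the Tbx5 morphants, for which no ratio exists. Of the 95 miRNAs with more reads, the class of miR-218a, 73 did, which is 76.8%. The highest FC within the interval was 1.20 times the lowest for miR-218a, 1.53 times for miR-218b and 1.72 times for miR-138.

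The middle of the distribution of FC lay below 1. Since rpm are shares of a fixed total, a larger share of some miRNAs leaves less for the others. The 3 most abundant miRNAs were miR-9, miR-206 and miR-21. The rpm left to all others in the Tbx5 morphants was 0.907 times that in the controls. Over the 107 miRNAs that exceeded 200 rpm on both sides the FC had a median of 0.910, or -0.14 on the log2 scale. Relative to this median, miR-218a had a FC of 0.857 (0.782 to 0.938), miR-218b of 0.938 (0.756 to 1.16) and miR-138 of 1.23 (0.935 to 1.61), with the median taken as fixed. miR-218a thus remained lower, and the intervals of miR-218b and miR-138 still included 1. By this measure 34% of all miRNAs with a ratio lay below the median with their whole interval, as 1 of the 3 members did, and 27.2% lay above it, as 0 of the 3 did. In the order of FC from the lowest of 162, miR-218a stood at place 52, miR-218b at place 70 and miR-138 at place 130.

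**Figure D2:**
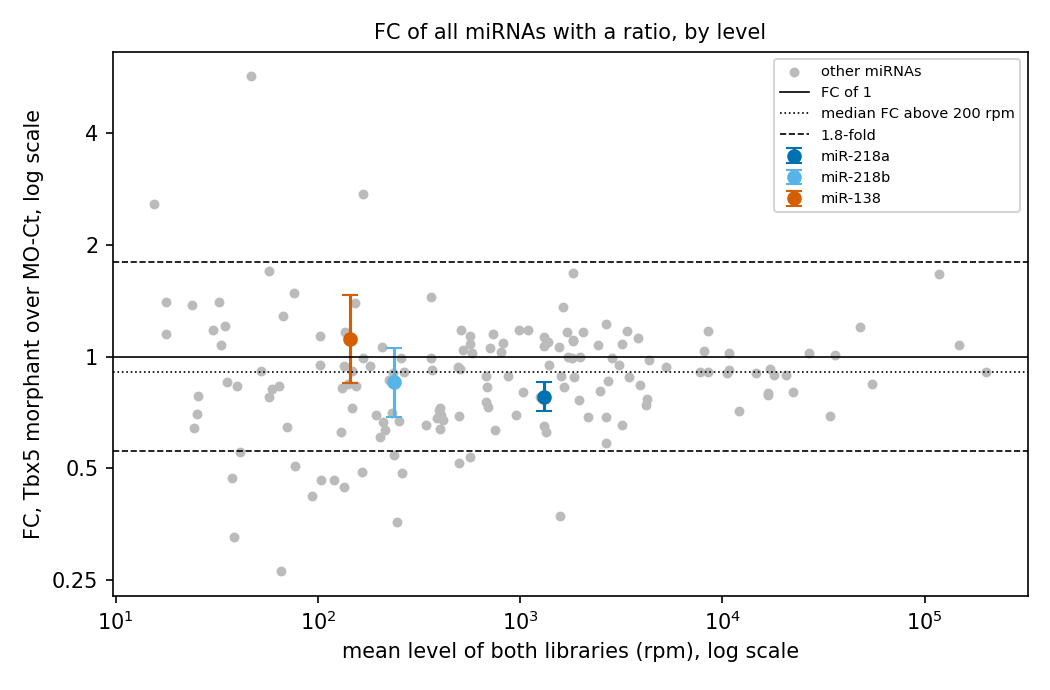
FC of the 162 miRNAs with a ratio (vertical axis, log scale) against the mean level of both libraries in rpm (horizontal axis, log scale); coloured points with 95% counting intervals are the members, dashed lines mark 1.8-fold, and the dotted line is the median FC of 0.910. miR-218a, at 0.780, lies below the dotted line with its whole interval, and miR-218b and miR-138 have intervals that cross an FC of 1.

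The miRNAs with a FC nearest to that of a member, among those above 200 rpm in both libraries, were named by the smallest difference in log2 FC. This likeness rests on 2 libraries only. For miR-218a they were miR-16b with a FC of 0.780 and miR-17a with 0.771. For miR-218b they were miR-196c with 0.856 and miR-200a with 0.859. For miR-138 they were miR-181b with 1.13 and miR-204 with 1.13.

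Other miRNAs with known roles in the heart gave the context for the members. This list held miR-1, the miR-133 family and miR-499 of heart and skeletal muscle, miR-21 and miR-23 of the zebrafish valves, miR-143 and miR-145 of smooth muscle and outflow tract, and the miR-19 family that the study followed. Of its 14 entries, 5 had an interval below 1, 3 had one above 1 and 6 included 1. Their median FC was 0.882, beside 0.897 over all miRNAs with a ratio. The 5 entries below 1 were miR-19a, miR-19b, miR-19c, miR-19d and miR-133b. The miR-19 family is listed because the study followed miR-19a, which it found lower in these same libraries. The count and the median of the heart list are thus not independent evidence of a direction. The FC of miR-218a was below this median, that of miR-218b was close to it, and that of miR-138 was above it. The lowest FC of the list was that of miR-19a, which the study picked from these same libraries, with 339 rpm against 658 rpm, 0.516 (0.439 to 0.604). The highest was that of miR-21, also the most abundant, with 148003 rpm against 88456 rpm, 1.67 (1.66 to 1.69). The FC of all 3 members lay between these.

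Since miR-218 and miR-138 are also known from nervous tissue, miRNAs of other tissues in the embryo were set beside them. Of 11 neural entries, namely miR-9, miR-124, miR-128, miR-132, miR-137, miR-219 and the miR-7 and miR-153 families, 9 had an interval below 1 and 2 had one above 1. Their median FC was 0.672, lower than the FC of each member. Their summed level was 220614 rpm in the controls and 198674 rpm in the morphants, most of it miR-9, and none was listed at 0. The lowest neural FC above the minimum level was that of miR-7b, at 0.358 (0.276 to 0.459). The highest above that level was that of miR-128, at 1.18 (1.07 to 1.30). Below it miR-132, with 72.4 rpm against 42.6 rpm, had a FC of 1.70 (1.10 to 2.62). The neural entries thus did not all lie on one side. An interval below 1, as that of miR-218a, was held by 9 of 11 here and by 74 of 162 over all miRNAs with a ratio. The study picked miR-219, miR-7a and miR-7b of this list from these same libraries as lower, so its count is not independent evidence of a direction. The part of nervous tissue in the FC of miR-218a was not tested.

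Of 6 muscle entries, 5 of which are also in the heart list, 1 had an interval below 1 and 2 had one above 1, with a median FC of 0.946. Their summed level was 172451 rpm in the controls and 183908 rpm in the morphants, most of it miR-206 of skeletal muscle, and none was listed at 0. The lowest muscle FC was that of miR-133b, at 0.640 (0.538 to 0.757). The FC of miR-218a thus lay below the muscle median, and that of miR-138 lay above it.

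Of 4 endothelial and blood entries, 1 had an interval below 1, 0 had one above 1, and the median FC was 0.906. Their summed level was 1418 rpm in the controls and 1213 rpm in the morphants, and none was listed at 0. The most abundant was miR-126, a miRNA of endothelial cells, with a FC of 0.886 (0.782 to 1.003). The entry with an interval below 1 was miR-451, with 75.8 rpm against 163 rpm and a FC of 0.464 (0.326 to 0.647). miR-144, with 19.0 rpm against 16.5 rpm, had a FC of 1.15 (0.493 to 2.54). The interval of miR-218a overlapped that of miR-126.

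**Figure D3:**
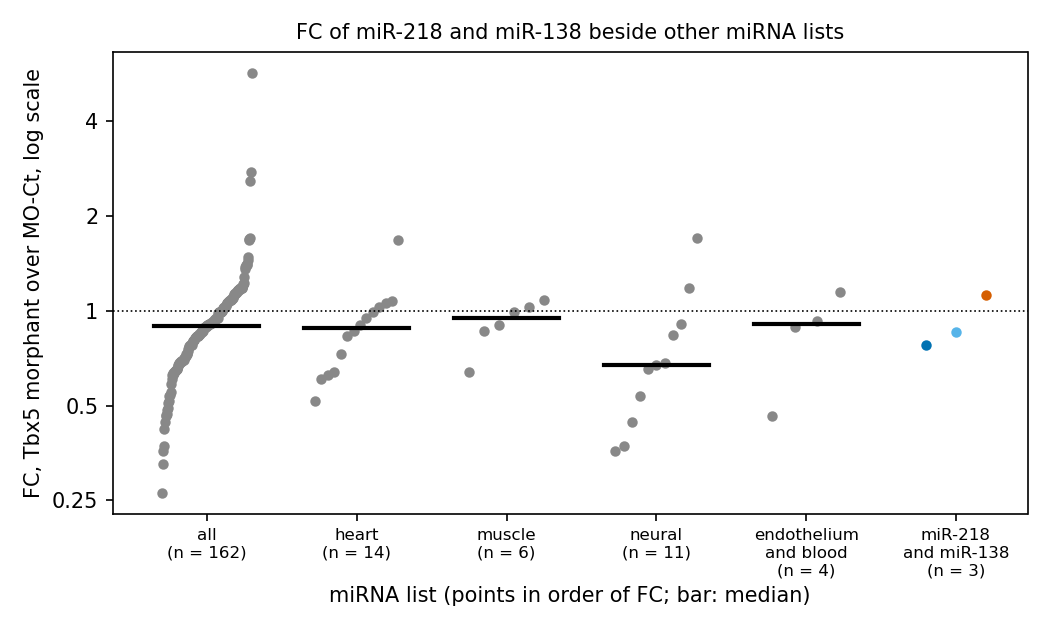
FC (vertical axis, log scale) of all 162 miRNAs with a ratio, of the heart, muscle, neural, and endothelium and blood lists, and of the members; each point is a miRNA, in order of FC within its list, and bars are list medians. The neural median of 0.672 lies below all 3 members, and the heart median of 0.882 lies between miR-218b and miR-138.

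The position of the miR-218a loci within slit2 and slit3 was compared with that of all entries. The deposited names cover 312 loci, of which 292 were found as a single gene of the annotation, and 39.0% of these lay within a protein-coding gene. Strand was not considered, so a locus counted as within a gene may lie on the opposite strand. The 68 entries with a ratio whose loci all lay within protein-coding genes, miR-218a among them, had a median FC of 0.881. The 65 entries with none of their named loci in such a gene, miR-218b and miR-138 among them, had a median FC of 0.886. miR-138 is in this class by its named locus only, since the annotation also places mir138-2 within tcaim. The 29 remaining entries with a ratio, those with loci of both kinds or with unmatched loci, had a median FC of 0.992. miR-218a was thus below the median of its class, miR-218b was somewhat below that of its own, and miR-138 was above it. Slit and Robo transcripts themselves were not measured in these small RNA libraries.

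The FC of the members was recomputed under other scalings. Divided by a trimmed mean of log ratios, the FC was 0.875 for miR-218a, 0.957 for miR-218b and 1.25 for miR-138. In each setting miR-218a and miR-218b had a FC below 1 and miR-138 had one above 1, and none of the 3 reached 1.8-fold. The side of 1 could not have changed. Pseudocounts cannot carry a FC across 1, and the rescalings only divided by 0.891 to 0.910. These settings thus say nothing about the direction of miR-218b and miR-138, whose intervals included 1.

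**Figure D4:**
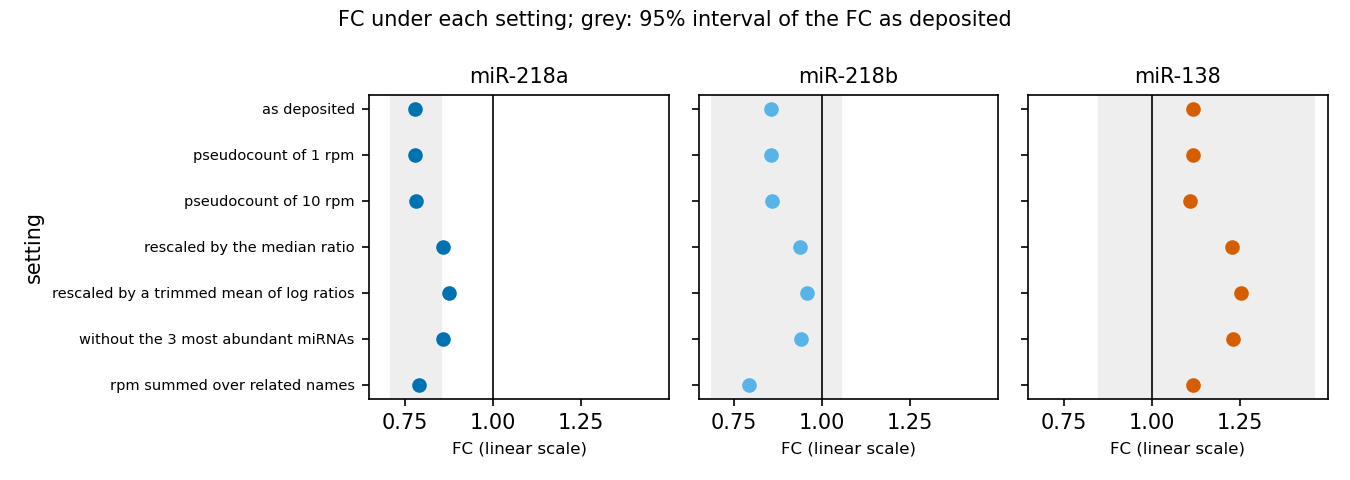
FC of each member (horizontal axis, linear) under each setting (vertical axis); grey bands are the 95% counting interval of the FC as deposited and the black line is an FC of 1. The rescaled values of miR-218a, up to 0.875, lie just above its band and below 1, and all values of miR-218b and miR-138 lie within their bands. The value for summed names is the same sum in the panels of miR-218a and miR-218b.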

How the data were processed

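By the methods of the study, libraries of inserts of 18 to 33 nt were sequenced on an Illumina GAIIx, and reads were quality filtered, trimmed, grouped into unique sequences with a minimum number of occurrences and annotated to the zebrafish reference of miRBase, tolerating mismatches and extra end bases. The authors deposited these data as rpm, with 1 value for each miRNA in each library, and the values of a library sum to 1000000 over the listed miRNAs. Entries are named by hairpin, so the arms were not separated. A genome build is not given in the sources used here, and no coordinates are given. Mature sequences were not used here.

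Reads were recovered as the smallest total from 50000 to 3000000 for which all values of a library were whole reads within rounding and summed to the total. A count of 3 reads is 2.61 rpm for MO-Ct and 5.17 rpm for the Tbx5 morphants. The lowest value above 0 was 6 reads for MO-Ct and 11 reads for the Tbx5 morphants. Both lie below the minimum number of occurrences that the study states for a sequence. How that minimum was applied to the deposited values is not known. How far the minimum number of occurrences affected the FC of miRNAs with few reads was not tested. FC was the ratio of rpm with no pseudocount. The recovery of reads and the intervals were tested on reads simulated from the MO-Ct levels. The simulation held counting error only, with no PCR copies, minimum number of occurrences or variation between pools of embryos. It therefore says nothing about these limits. With 1 library per condition, no count test could be made. The members and lists were chosen with earlier results of these data known. Besides the members, the miRNAs named were each member's neighbours in level and in FC and, of each list, those with the highest mean rpm and the lowest and highest FC above 200 rpm in at least 1 library. Some further miRNAs, such as miR-132 and miR-451 below that level, were named outside this rule. The alternatives were pseudocounts, scalings, summed names, minimum rpm and fold thresholds. Python 3.11.15, NumPy 2.4.6, SciPy 1.17.1 and Matplotlib 3.10.9 were used.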

Additional observations from a re-analysis of the deposited data

How the results depend on the processing

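No paired analysis was possible because there was 1 library on each side, which also leaves no replicate to omit. The FC of miR-218a, 0.780 as deposited, moved above its counting interval to 0.857 when divided by the median ratio, to 0.875 with the trimmed mean and to 0.860 without the 3 most abundant miRNAs, all below 1. Of 18 values of the members under alternatives 15 stayed within their counting intervals, and the 3 others were these rescaled values of miR-218a. The same rescalings stayed within the wider intervals of miR-218b and miR-138, and summing names leaves miR-138 unchanged. For miR-218a and miR-218b, summing names gives the same shared value, 0.791, which is counted for each. Most of its reads are of miR-218a, so it is no separate estimate for miR-218b. The count of 15 thus reflects the width of the intervals and is no measure of stability. All 16 list medians under alternatives stayed between the median lower end and the median upper end of their members' intervals. This band is wide, at 0.687 to 1.07 for the heart list, and is not an uncertainty of the median. Staying within it therefore says little about the medians. The count of all miRNAs past the FC threshold was 7 of 116 in the main setting and 30 of 173 with no minimum rpm. It was 13 of 135 with 100 rpm and 3 of 88 with 500 rpm in the MO-Ct library. With 200 rpm in the Tbx5 morphant library it was 4 of 108 (3 lower and 1 higher). With 200 rpm in both libraries it was 3 of 107. It was 18 of 116 with a FC of 1.5 and 4 of 116 with a FC of 2. These changes follow from the thresholds themselves. Divided by the median ratio the count was 6 of 116, of which 4 were lower and 2 higher, against 7 lower and 0 higher in the main setting. The 30 found with no minimum rpm include the 11 miRNAs listed at 0 in the Tbx5 morphants. In each of these settings 0 of the 3 members passed, but not all 3 could be counted in each. miR-138, at 152 rpm in the Tbx5 morphants and 136 rpm in the controls, was under every minimum of 200 rpm or more. The minimum of 200 rpm in the MO-Ct library also held for the other FC thresholds and for the division by the median ratio. miR-218b, at 219 and 256 rpm, was under the minimum of 500 rpm. The reads of miR-138 and miR-218b limit what can be said of them: the counting interval of the FC ran from 0.851 to 1.46 for miR-138 and from 0.687 to 1.05 for miR-218b.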
